A study of Zea mays with 12 samples.

Results

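The Bx cluster genes bx1, bx2, bx3, bx4, bx5 and bx8 make benzoxazinoids, the indole-derived defence compounds of maize seedlings. They were followed in shoot apices of tml1;tml2 mutants and of wild types. The 6 genes were taken by gene model, out of 39324 in the deposited gene table, and all 6 were among the 22772 genes that passed the filter on low counts. They were chosen by their values in an earlier look at these data, which showed lower counts in the mutant, so the comparison of genotypes is given here as a description. Counts of calls by tests across all genes are given as background, and nothing is read from them for these genes. In all 3 mutant samples each of the 6 genes was below its lowest wild-type value, as were 9.03% of the 22772 genes tested. The mutant means of the 6 genes were 31.7% to 43.4% of their wild-type means. Summed over the 6 genes, the level was 7778 ± 543 CPM in the wild type and 3028 ± 632 CPM in the mutant (SD, n = 3 each), where CPM is counts per 1000000 counts of a sample after TMM scaling.

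Benzoxazinoid synthesis branches from tryptophan synthesis. BX1 cleaves indole-3-glycerol phosphate to free indole in the plastid, 4 cytochrome P450 enzymes (BX2 to BX5) add oxygen to it step by step to give DIBOA, and a glucosyltransferase such as BX8 attaches glucose, which makes the product safe to store. Maize is known for holding most of these genes close together on the short arm of chromosome 4, and young seedlings are known for high levels of both the transcripts and the compounds.

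The samples were shoot apices of maize inbred line B104, dissected from seedlings germinated for 7 days. Each held the shoot apical meristem, leaf primordia of plastochrons 0 to 5 (counted from the youngest outward) and leaf sheath, with root, embryo and coleoptile cut away. The 3 mutants were homozygous for CRISPR/Cas9 loss-of-function alleles of both TOO MANY LATERALS genes, tml1 and tml2, and the 3 wild types segregated from the same edited material. The mutations segregated independently of the transgene, and seeds were genotyped before germination. Each sample was sequenced in 2 runs, summed here, to 27213052 to 31980536 counts. The labels speak of 3 individual apices per genotype pool, which does not say whether a sample is 1 apex or several. SDs measure the spread among these samples. P-values set the genotype difference against that spread, which the tests estimate partly from other genes. On the first principal component, which held 46% of the variance, mutant 4 scored 115.6 against −84 and −64.5 for wild types 2 and 4, with wild type 3 at 9.88, mutant 2 at −3.21 and mutant 3 at 26.2. The genotypes were thus not fully parted on it.

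The deposited table gives gene model IDs without names. The names bx1 to bx8 are those in use for these B73 version 4 models. RefSeq's gene table for assembly Zm-B73-REFERENCE-NAM-5.0 holds all 6 names, but none of the IDs, so it cannot pair them. It places the 6 genes on chromosome 4 in the order bx3, bx4, bx5, bx8, bx1, bx2, which is also their order by ID number. In RefSeq 3 other genes lie among them, and the 6 IDs fall within 9 consecutive numbers, of which 7 were listed in the deposited table. Markers of meristem, leaf, root and green leaf could not be matched to IDs in the same way, nor could tml1 and tml2, so the tissue and genotype of each sample rest on the labels.

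The first enzyme of the pathway had the widest difference between genotypes. In the wild type bx1 (Zm00001d048709) was at 1023, 801 and 857 CPM in samples 2, 3 and 4, and in the mutant at 298.5, 297.6 and 254.9 CPM. The lowest wild-type sample was 2.68 times the highest mutant sample. The means were 894 ± 115 and 284 ± 24.9 CPM (SD, n = 3 each), a 3.15-fold lower level in the mutant, or a log2 fold change of −1.66 (SE 0.19). In bulk tissue, fewer cells that express the gene and less transcript per cell cannot be told apart.

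The P450 that takes up the indole, bx2 (Zm00001d048710), followed closely. It was at 1158, 993 and 1085 CPM in wild types 2, 3 and 4 and at 444.3, 397 and 323 CPM in the mutants in the same order. The groups lay well apart, with means of 1079 ± 82.7 and 388 ± 61.3 CPM (SD, n = 3 each), 2.78-fold lower in the mutant, with a log2 fold change of −1.48 (SE 0.20).

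The 3 later P450 genes catalyse the following oxidations. For bx3 (Zm00001d048702), the values were 1360.4, 1240.4 and 1125 CPM in wild types 2, 3 and 4 and 619.98, 528 and 469 CPM in mutants 2, 3 and 4. For bx4 (Zm00001d048703), they were 2126, 1833 and 1992 CPM against 1024, 805 and 655 CPM. Neither gene overlapped between genotypes, and bx3 had the smallest difference of the 6 genes, at 2.30-fold with a log2 fold change of −1.20 (SE 0.20), where bx4 was 2.40-fold lower at −1.26 (SE 0.24). The most abundant member by count, bx5 (Zm00001d048705), completes the core structure of DIBOA. It stood at 2297, 2183 and 2061 CPM in the wild types and at 1061, 809.7 and 611 CPM in the mutants. All 3 mutants were again below all 3 wild types, by 2.63-fold in the means and a log2 fold change of −1.40 (SE 0.26).

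The glucosyltransferase gene bx8 (Zm00001d048707) was the least abundant member. It was at 442, 402 and 357 CPM in wild types 2, 3 and 4 and at 223, 170.8 and 93.8 CPM in the mutants. The genotypes did not overlap, but they came closer than for any other member, since wild type 4 was 1.60 times mutant 2. The means of 400.4 ± 42.3 and 162.5 ± 65 CPM (SD, n = 3 each) differed by 2.46-fold, with a log2 fold change of −1.30 (SE 0.32). A maize gene of close sequence and like function, bx9, was not analysed here. How reads were shared between such relatives is not stated by the authors.

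**Figure D1:**
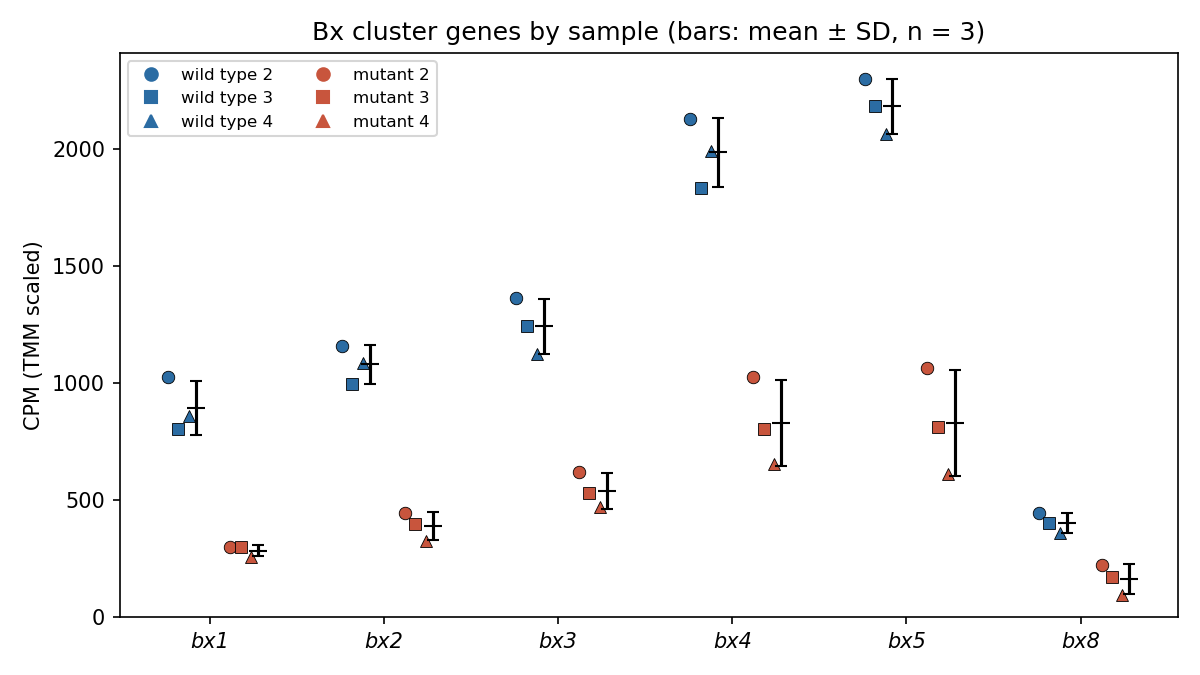
Level of each Bx gene (vertical axis, CPM after TMM scaling, linear from 0) in the 3 wild-type and 3 mutant samples, genes in pathway order along the horizontal axis. Points are samples, horizontal marks the mean and bars the SD. The genotypes do not overlap for any of the 6 genes, with the widest gap for bx1 (2.68 times) and the narrowest for bx8 (1.60 times). Mutant values wholly below the wild-type values held for 9.03% of all genes tested.

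How unusual such values were among all genes is best read from counts over the table. All 6 genes had mutant values wholly below the wild-type values, which held for 9.03% of the 22772 genes tested. With a wild-type mean at least 2 times the mutant mean in addition, the share of all genes was 1.84%, and among the 2203 genes with a wild-type mean of at least 100 CPM it was 2.36%. The median log2 fold change was −1.35 over the 6 genes and 0.0047 over all genes tested. Ordered by fold change from the lowest, the 6 genes took ranks 16 to 36 among the 2167 genes with a mean of at least 100 CPM. Since the members were chosen for this contrast, these shares describe them and give no support of their own.

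Calls for the 6 genes depended on the tool, and since the genes were chosen on these same values, the counts restate that choice and are no evidence of a difference. edgeR's quasi-likelihood test with Benjamini-Hochberg adjustment called 0 of the 6, and 0% of the 22772 genes tested, at an adjusted p of 0.05. At an unadjusted p under 0.05, edgeR counted all 6 as lower in the mutant, beside 5.31% of all genes. DESeq2 on the same 6 samples called all 6 as lower, beside 0.807% of 24166 genes with an adjusted p. Without wild type 2, or without wild type 4, DESeq2 called 5 of the 6 and bx8 was the one lost. In these fits DESeq2 called 185 and 309 genes in all, in either direction.

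Together the 6 genes were abundant in the wild-type apex. They held 0.827%, 0.759% and 0.687% of all counts in wild types 2, 3 and 4, and 0.372%, 0.312% and 0.248% in mutants 2, 3 and 4. No mutant came near a wild type, and the sum was 2.57-fold lower in the mutant by CPM. In TPM, which corrects for transcript length and is used below for levels between genes, the sum was 5349 ± 562 in the wild type and 2301 ± 411 in the mutant (SD, n = 3 each), 2.32-fold lower. Ranked by mean TPM among all genes of the table, bx5 was 47th and bx4 52nd in the wild type, and 224th and 216th in the mutant. The ranks of bx1 were 175 in the wild type and 637 in the mutant.

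Per length, the P450 genes of the later steps were the most abundant in both genotypes. In the wild type the order in TPM was bx5 at 1406 ± 159, bx4 at 1305 ± 99.2, bx3 at 948 ± 135, bx1 at 745 ± 101, bx2 at 617 ± 47.2 and bx8 at 328 ± 51 (SD, n = 3 each). In the mutant it was bx4 at 602 ± 119, bx5 at 589 ± 144, bx3 at 456 ± 53, bx1 at 262 ± 14.2, bx2 at 246 ± 31.2 and bx8 at 146 ± 54.8 (SD, n = 3 each). The order differed between genotypes only in the exchange of bx4 and bx5, whose means differed by less than the SD of bx5 in both. The means of bx1 and bx2 in the mutant differed by less than the SD of bx2.

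The make-up of the sum shifted a little within this common pattern. The share of bx1 in the summed TPM was 14.7%, 13.0% and 14.0% in wild types 2, 3 and 4 and 9.88%, 11.97% and 12.8% in mutants 2, 3 and 4. The share of bx3 was 17.9%, 18.3% and 16.8% against 18.9%, 19.5% and 21.6%. The ranges of the genotypes were apart for both genes, with bx1 lower and bx3 higher in the mutant. The share of bx4 was 24.4 ± 0.994% and 26.1 ± 0.595% (SD, n = 3 each) and just failed to overlap, at 25.55% in wild type 4 and 25.61% in mutant 3. The shares of bx2, bx5 and bx8 overlapped, and that of bx8 was 6.11 ± 0.368% and 6.18 ± 1.39% (SD, n = 3 each). Shares of a sum are tied to each other, and their differences between genotypes were not tested.

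**Figure D2:**
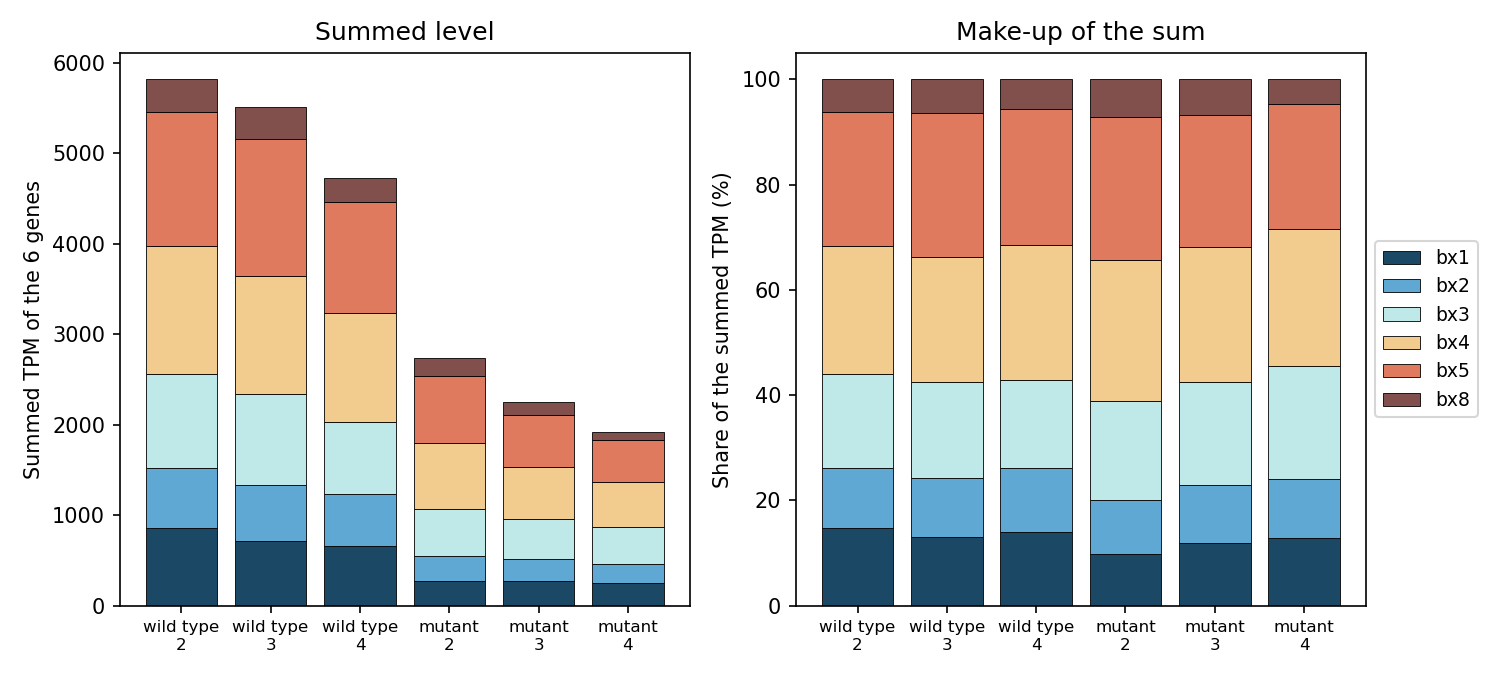
Left, summed TPM of the 6 Bx genes in each sample (bars from 0, stacked by gene), right, the same as percent of each sample's sum. The sums run from 4725 to 5816 TPM in the wild types and from 1916 to 2733 TPM in the mutants, while each gene keeps a broadly similar share, with bx1 between 9.88% and 14.7%.

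Ratios between genes, taken from the same TPM values, restate the shift in make-up and add no separate showing of it. The TPM ratio of bx1 to bx3, the pair with the most and the least different folds, chosen after their values were seen, was 0.822, 0.711 and 0.833 in wild types 2, 3 and 4. In mutants 2, 3 and 4 it was 0.523, 0.614 and 0.593. All 3 mutants were lower, with means of 0.789 ± 0.0675 and 0.577 ± 0.0472 (SD, n = 3 each). For consecutive P450 steps, the ratio of bx2 to bx3 was 0.656 ± 0.0593 in the wild type and 0.538 ± 0.0232 in the mutant (SD, n = 3 each), also without overlap. The ratios of bx3 to bx4, of bx4 to bx5 and of bx5 to bx8 overlapped between the genotypes. The ratio of bx1 to bx2 was lower in every mutant than in every wild type, but by a narrow gap, at 1.154 in wild type 4 and 1.147 in mutant 4. These ratios rest on the contrast the genes were chosen for and were not tested.

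Within a genotype the 6 genes shared much of their order of samples. Wild type 2 had the highest CPM of the wild types for all 6 genes, between 0.08 and 0.20 above the genotype's mean on the log2 scale. Wild types 3 and 4 each had the lowest value for 3 genes. Among the mutants, mutant 2 was highest and mutant 4 lowest for all 6. Mutant 4 deviated from the mutant mean by −0.15 (bx1) to −0.70 (bx8) on the log2 scale. Some of this order depended on scaling. By TPM wild type 3 was the highest wild type for bx5, by TPM and by CPM without TMM factors wild type 4 was the lowest for all 6, and by CPM without TMM factors mutant 3 exceeded mutant 2 for bx1. Because the genotypes lie apart, a correlation pooled over the 6 samples would restate their difference, and 3 samples per genotype are too few for one within a genotype, so none is given. The order of the mutants matches that on the first principal component, where mutant 4 scored 115.6, mutant 3 26.2 and mutant 2 −3.21. Wild type 2 had the lowest score of all, −84. The match did not hold over all 6 samples. Mutant 2 scored below wild type 3, at 9.88, yet had a summed CPM of 3671 against 7452. Wild type 4 scored −64.5 with a summed CPM of 7477, near that of wild type 3. The part of that component in the Bx levels was not tested. Without mutant 4 the summed CPM was 2.33-fold lower in the mutant, and without wild type 2 it was 2.46-fold lower.

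The spread differed among the genes. In the mutant the coefficient of variation of CPM was 8.78% for bx1, 14.1% for bx3, 15.8% for bx2, 22.4% for bx4, 27.3% for bx5 and 40.0% for bx8. In the wild type it was between 5.41% for bx5 and 12.9% for bx1. So bx8 varied most among mutants and bx1 least, while bx1 was the most variable member among wild types. Counting error was smaller than all of these, since the members had 2896 to 66964 counts per sample, which gives a counting SD of 0.386% to 1.86%. The 2 runs of a sample, each scaled to its own total, gave ratios of 0.951 to 1.05 for the members.

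**Figure D3:**
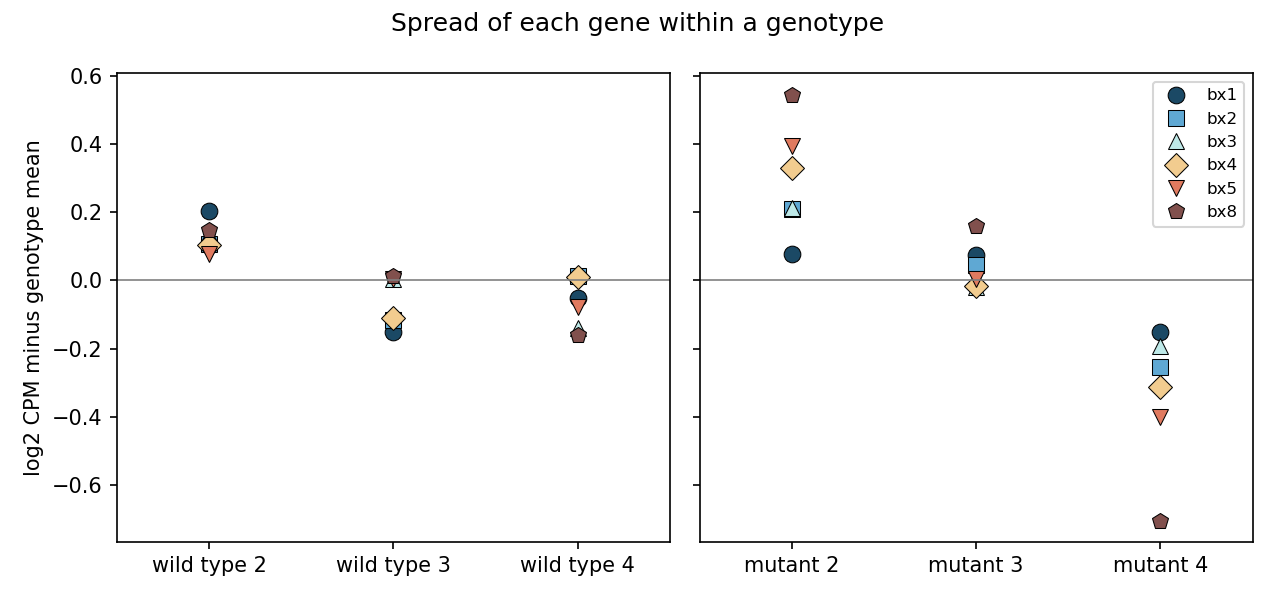
Deviation of each sample from its genotype's mean (vertical axis, log2 CPM) for the 6 Bx genes, wild types left and mutants right. All 6 genes are above the mean in wild type 2 and mutant 2 and below it in mutant 4, where bx8 is lowest at −0.70.

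The lengths of the transcripts counted for each gene are a measure that the choice of genes had not used. The deposited average transcript length per gene can shift when a gene changes between long and short transcripts. It can also move for several genes of a sample together, as in wild type 4 below, so it does not measure transcript choice alone. For bx3, which has 2 well expressed transcripts in the authors' deposited table, it was 1282.4 ± 15.3 bases in the wild type and 1282.2 ± 4.93 bases in the mutant (SD, n = 3 each). Lengths of the other 5 genes differed by 0.269% to 0.693%, all slightly longer in the mutant and all overlapping between genotypes. The equal means of bx3 therefore do not show that its 2 transcripts kept their proportions. The length of bx3 relative to the other genes was not tested. Wild type 4 had the shortest length for each of the 6 genes. For bx1 it was at 1158 bases, against 1174 to 1181 bases in the other samples. For bx2 it was at 1692 against 1707 to 1715 bases, and for bx8 at 1183 against 1198 to 1207 bases. The slightly greater mutant means thus lean on that sample, and a shift of its lengths as a whole was not tested. In limma's test over 21744 genes 0 of the 6 passed the adjusted threshold, beside 0.0046% of all genes, and the lowest adjusted p among the 6 was 0.56. None of the 6 reached an unadjusted p under 0.05 in limma, where the lowest was 0.313 and 877 of all genes did.

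Single transcripts are given in the authors' deposited table, which lists 7216 transcripts at an adjusted p of up to 0.05. The direction of its fold changes is not labelled. For 91.9% of the 7058 transcripts that could be compared, the sign in the authors' deposited table was the reverse of the gene's change from wild type to mutant found here, so positive values are read as lower in the mutant. On that reading all 9 listed Bx transcripts in the authors' deposited table were lower in the mutant, beside 46.6% of all 7216 listed transcripts. The log2 fold changes in the authors' deposited table were 1.67 (SE 0.0877) for bx1 T002 and 1.49 (SE 0.0977) for bx2 T001, the 2 lowest p-values of the table. For bx3 the authors' deposited table gives 1.28 (SE 0.0929) for T001 and 1.15 (SE 0.0990) for T002. For bx4 it gives, in the authors' deposited table, 1.28 (SE 0.124) for T001, which carries nearly all of the gene, with a mean of 20683 normalized counts against 150 for T002 at 1.26 (SE 0.254). For bx5 the authors' deposited table gives 1.42 (SE 0.150) for T001 and, for the rare T002, 0.70 (SE 0.155). For bx8 the authors' deposited table gives 1.32 (SE 0.226). So the main transcripts carried differences close to those of their genes, and T002 of bx5 a smaller one. These values share all libraries with the counts above. Whether the 2 runs of a sample entered as 1 or 2 is not stated, so the SEs may measure runs as well as plants. With runs summed, DESeq2 here gave larger SEs for the genes, 0.177 for bx1, 0.190 for bx2 and 0.341 for bx8. Only T002 of bx4 had a deposited SE above that of its gene, 0.254 against 0.224. At an adjusted p of 0.05 DESeq2 called 658 genes with runs summed and 5993 with each run as a sample. How the runs entered the authors' deposited table was not tested.

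Genes with IDs numbered around the cluster were set beside it, as far as they were listed. Between Zm00001d048690 and Zm00001d048722, 22 other IDs were listed and 14 were abundant enough to test. Their median log2 fold change was −0.08. edgeR's quasi-likelihood test called 0 of the 14 at an adjusted p of 0.05. It called 0% of all genes tested, so this count cannot set the 14 apart. At an unadjusted p under 0.05 edgeR counted 2 of the 14, each lower in the mutant, beside 5.31% of all genes as lower. DESeq2 on the 6 samples called 0 of the 14 at an adjusted p of 0.05, beside 0.807% of all genes called as lower. The ID that sits among the members by number, Zm00001d048704, had 0 counts in every sample. The next lower ID, Zm00001d048701, was at 24.8 ± 6.36 CPM in the wild type and 24.3 ± 7.19 CPM in the mutant (SD, n = 3 each). The next higher one, Zm00001d048711, singled out after its values were seen, was at 152, 116 and 144 CPM in wild types 2, 3 and 4. It was at 88.5, 63.0 and 24.4 CPM in mutants 2, 3 and 4, and like the Bx genes did not overlap between genotypes. Its log2 fold change was −1.22 (SE 0.44), with an edgeR adjusted p of 0.40. The authors' deposited table does list its transcript T001, with a log2 fold change of 1.25 (SE 0.321), in the same direction as the Bx transcripts. What that ID encodes is not annotated in the files used here.

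**Figure D4:**
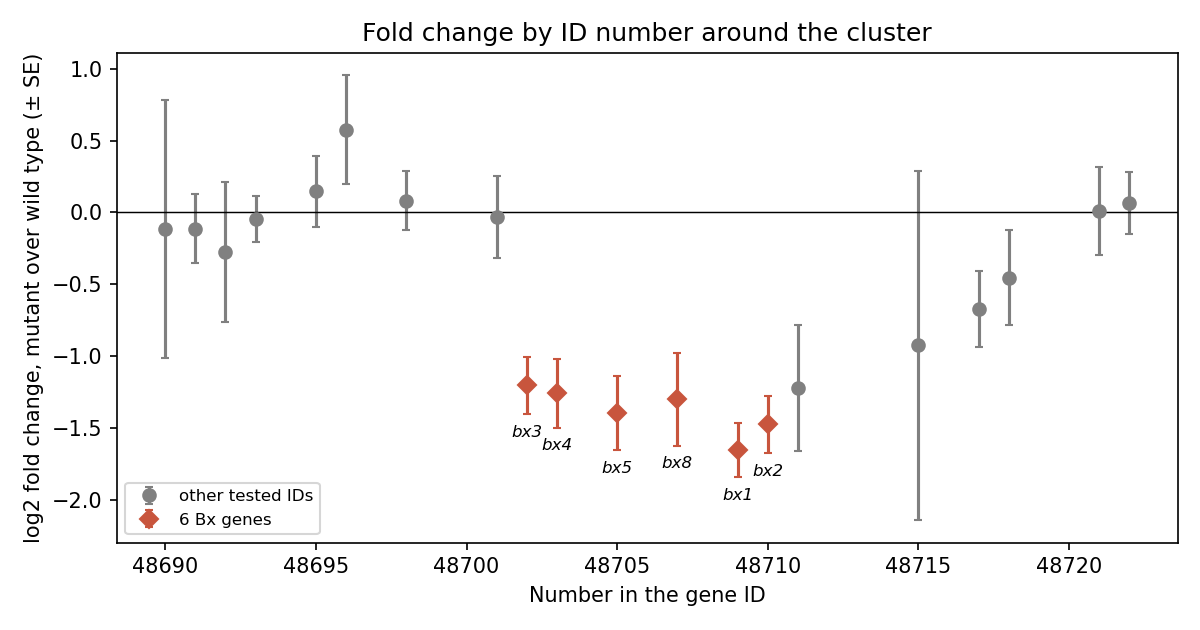
Log2 fold change, mutant over wild type, with its SE (vertical axis) against the number in the gene ID (horizontal axis) for the 6 Bx genes (diamonds) and the 14 other tested IDs from Zm00001d048690 to Zm00001d048722 (circles). The Bx genes lie between −1.66 and −1.20, and of the other IDs only Zm00001d048711, at −1.22, falls in that range.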

How the data were processed

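The 6 samples are 3 wild types and 3 mutants, grouped by title. The submitters' processing notes name STAR, Salmon and DESeq2. Versions, settings and genome build are not given there or in the labels. The authors deposited estimated counts, TPM and average transcript length per gene and run. The authors' deposited table per transcript holds a mean normalized signal, a log2 fold change with its SE, a Wald score and p-values. Runs were summed (TPM and length averaged) and rounded. The test was edgeR 4.0.16's quasi-likelihood test in R 4.3.3, TMM-scaled, filtered by filterByExpr and adjusted by Benjamini-Hochberg over all genes. SEs are approximate. Alternatives were DESeq2 1.42.0, limma 3.58.1 (voom, and log2 TPM with pseudocounts 1 and 0.1), other scalings and filters, single runs, a replicate block, a length offset and each sample left out. Length was tested with limma at a mean TPM of at least 1. The members and lists were chosen with earlier results of these data known. Named in addition were, by rule, the 2 IDs closest in profile and IDs numbered among the members. Of 11 other pathway genes listed by symbol 0 could be matched to an ID, as for the 4 marker lists, so none of these lists was analysed. Tests were checked on simulated data. There edgeR recovered 4 of 67 planted 2-fold changes and 27 of 67 planted 4-fold changes, with 6 false calls. DESeq2 recovered 21 and 48 of these, with 82 false calls. Counting intervals cover counting error only.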

Additional observations from a re-analysis of the deposited data

How the results depend on the processing

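The number of Bx genes called at an adjusted p of 0.05 was 0 with edgeR's quasi-likelihood test. It was 6 with DESeq2 on the 6 samples, beside 658 genes called in all. It was also 6 with DESeq2 on the 12 run columns, which counts runs as samples, beside 5993 genes called in all. It was 0 in the other edgeR and limma alternatives and 0 to 0 over edgeR's leave-outs. DESeq2's count, examined after the results were seen, was 5 to 6 over its leave-outs, beside 185 to 1344 genes called in all. The cause was not tested. The genes were chosen on these same values, so none of these counts is a test of them. All 6 log2 fold changes were negative in each of 18 alternatives, from −1.74 (bx1) to −1.02 (bx8), a direction that the choice of genes fixes. The ratio of summed CPM was 2.33 to 2.87 over the leave-outs and 2.51 to 2.63 with any 1 gene left out. The replicate block gave 0 calls by edgeR among the 6 genes and among the neighbouring IDs, and 0 for transcript length. Over all tested genes, the deviations of samples 2, 3 and 4 from their genotype means correlated across genotypes at 0.216, −0.268 and −0.176. Some samples correlated better with another number. With 3 samples per genotype these values cannot decide whether the shared numbers mark pairs, and they were not tested. The block and the other alternatives for neighbouring IDs and transcript length also gave 0. With edgeR's block and leave-outs 0 genes of the whole table were called. Their 0 among the Bx genes and the neighbouring IDs follows from that. Limma on log2(TPM + 1) shifted the median of all genes by 0.13, well under the Bx differences. Tests of other pathway genes were not run, since none could be matched. Depth does not limit the Bx genes, at 2896 or more counts per sample.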

Other observations

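Profiles close to that of the Bx genes were sought among 20869 other genes with a mean of at least 1 CPM, by the root mean square difference between centred log2 CPM profiles over the 6 samples. The closest, Zm00001d040697, differed from the mean Bx profile by 0.0756, a smaller difference than that of 4 of the 6 Bx genes themselves. It was an abundant gene at 1616 ± 101 CPM in the wild type and 641 ± 112 CPM in the mutant (SD, n = 3 each), with a log2 fold change of −1.33 (SE 0.21). The next, Zm00001d029577, differed by 0.137 and was scarce, at 13.1 ± 1.23 CPM and 4.24 ± 0.597 CPM. Its log2 fold change was −1.63 (SE 0.20). Of the Bx genes, bx5 lay closest to their mean, at 0.0624, and bx8 farthest, at 0.195. The files do not pair either ID with a gene name. Both were chosen for likeness to a profile that parts the genotypes, so their differences are a description.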
